A study of Homo sapiens with 12 samples.

Results

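All 9 genes followed here were measured. They encode kinases that release RNA polymerase II from pausing, proteins that hold one of them inactive and kinases acting later in the gene body. They are CDK9, CCNT1 and CCNT2 (the kinase and cyclins of P-TEFb), HEXIM1, MEPCE and LARP7 (the protein side of the 7SK particle), and CDK12, CDK13 and CCNK (2 long kinases and their cyclin). They were taken by gene name from 60666 human gene rows, and the choice was made with earlier results of these data known. All 9 were among the 20791 human genes that passed the filter on low counts.

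P-TEFb phosphorylates the pausing factors DSIF and NELF and the C-terminal domain of polymerase II, which lets a paused polymerase enter the gene body. Much of it is kept inactive in the 7SK particle, where HEXIM1 inhibits CDK9 on the scaffold of 7SK RNA, MEPCE caps that RNA and LARP7 binds its 3′ end. CDK12 and CDK13, each with cyclin K, phosphorylate the C-terminal domain during elongation, and loss of CDK12 is known to lower long genes of homologous recombination.

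The cells were DLD-1, established from a human colorectal adenocarcinoma, and their poly(A) RNA was sequenced. They constitutively express OsTIR1, a plant receptor which marks proteins carrying an auxin-inducible degron (AID) for destruction when auxin is present. SPT6-AID cells carry the degron on SPT6, a histone chaperone that travels with polymerase II, and PAF1-AID cells carry it on PAF1, which belongs to the elongation complex of the same name. Each line was sampled after 0, 2 and 6 h in 500 µM auxin, with 2 libraries at each time (replicates 1 and 2 of SPT6-AID, replicates 3 and 4 of PAF1-AID), so there were 12 libraries in 6 groups. The labels do not say how many clones were used or whether the replicates came from different cultures. The p-values therefore cover the spread between these libraries alone, and this may be technical. Untagged cells in auxin were not analysed here, and a change from 0 h cannot be told apart from an effect of auxin itself.

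Totals ran from 31957953 to 115904780 counts per library. Depletion of the tagged proteins was not measured. Epithelial markers were abundant (EPCAM 802 to 1032 CPM, the counts scaled for library size by TMM), as was the intestinal factor CDX2 (123 to 308 CPM), but the intestinal markers VIL1, CDX1 and LGALS4 were at or near 0 (at most 0.58 CPM). Mitochondrial genes held 3.85% and 3.92% of human counts in SPT6-AID cells at 6 h against 2.39% and 2.45% at 0 h, and 3.16% and 2.22% in PAF1-AID cells at 6 h against 1.63% and 2.16% at 0 h. The part of this share in the 6 h results was not tested. Fly reads made up 3.94% to 6.25% of each library, and their share was 5.36% and 6.25% in SPT6-AID cells at 6 h against 4.30% in both libraries at 0 h, and 5.10% and 4.92% in PAF1-AID cells at 6 h against 3.94% and 4.39% at 0 h. How fly material was added is not given in the sources used here.

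The promoters of 3 genes are shown because these genes passed the threshold in the same direction in both lines at 6 h. The CDK12 window shown differs in its words and GC content from the MEPCE and HEXIM1 windows shown. Each window runs from 250 bases before to 50 bases after the start site in RefSeq's table for GRCh38.p14, plus strand, 5′ to 3′. Capitals mark TATATAA and CCAAT on either strand (CCAAT on the other strand reads ATTGG). MEPCE has 3 windows in that table and the one at its GENCODE start is shown. The coordinates are chr7:100428540-100428839 for MEPCE, chr17:45148225-45148524 for HEXIM1 and chr17:39461236-39461535 for CDK12.
MEPCE: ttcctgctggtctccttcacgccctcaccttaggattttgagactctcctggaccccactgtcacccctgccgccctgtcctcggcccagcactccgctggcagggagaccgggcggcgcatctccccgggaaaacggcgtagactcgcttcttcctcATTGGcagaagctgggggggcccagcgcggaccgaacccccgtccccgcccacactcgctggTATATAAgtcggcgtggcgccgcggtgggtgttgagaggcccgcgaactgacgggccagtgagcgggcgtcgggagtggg
HEXIM1: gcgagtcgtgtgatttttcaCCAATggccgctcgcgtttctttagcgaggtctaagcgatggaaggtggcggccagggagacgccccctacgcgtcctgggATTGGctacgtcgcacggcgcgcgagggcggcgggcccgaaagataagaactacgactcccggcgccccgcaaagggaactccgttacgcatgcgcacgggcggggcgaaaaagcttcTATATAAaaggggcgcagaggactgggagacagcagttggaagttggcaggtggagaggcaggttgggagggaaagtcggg
CDK12: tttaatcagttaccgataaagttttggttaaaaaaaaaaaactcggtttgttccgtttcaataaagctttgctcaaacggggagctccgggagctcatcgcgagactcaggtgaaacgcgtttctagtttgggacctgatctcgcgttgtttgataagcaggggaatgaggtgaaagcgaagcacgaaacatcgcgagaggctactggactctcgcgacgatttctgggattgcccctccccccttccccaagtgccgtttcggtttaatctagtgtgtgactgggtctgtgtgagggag

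In the MEPCE window TATATAA began 30 bases before the start site, and in the HEXIM1 window 31 bases before it. This word stood in 2.57% of all 35116 promoter windows of the same length, on either strand. It was added to the search after these sequences had been read, so its presence is a description with no test. The HEXIM1 match overlaps TATAAA, a word held by 11.5% of windows and by no other window of the 9 genes. CCAAT, present in 34.6% of windows, stood in windows of CCNT1, CCNT2, HEXIM1, MEPCE, LARP7 and CCNK. The CDK12 window held none of the 7 words searched on both strands. Among these were the TATA word TATAAA, its variant TATATAA and the CCAAT box. The others were the GC box GGGCGG, the ETS word CCGGAAG, the cyclic AMP element word TGACG and the E box CACGTG. A further MEPCE window (chr7:100429581-100429880) and a CCNT1 window (chr12:48696189-48696488) also held none of the 7 words. GC content was 49.0% in the CDK12 window, against 67.7% for the MEPCE window shown, 62.0% for HEXIM1 and a median of 58.7% over all windows.

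The 9 genes differ widely in size. HEXIM1 (ENSG00000186834, chromosome 17, 45148502 to 45152101, GRCh38 with GENCODE 29) is a single exon with a deposited gene length of 3625 bases. CDK9 (ENSG00000136807, chromosome 9, 127785679 to 127790787) and MEPCE (ENSG00000146834, chromosome 7, 100428790 to 100434126) have gene lengths of 5114 and 5329 bases. LARP7 (ENSG00000174720, chromosome 4, 112636964 to 112657592), CCNT1 (ENSG00000129315, chromosome 12, 48688458 to 48716998) and CCNT2 (ENSG00000082258, chromosome 2, 134918235 to 134959342) have gene lengths of 20486, 28541 and 41108 bases. CCNK (ENSG00000090061, chromosome 14, 99481169 to 99535044) has 53876 bases, CDK12 (ENSG00000167258, chromosome 17, 39461511 to 39564907) 103422 bases and CDK13 (ENSG00000065883, chromosome 7, 39949646 to 40099580) 149460 bases. CCNK is the member whose counts are least certain, because it overlaps the opposite-strand gene CCDC85C over 34865 bases and CCDC85C held up to 7968 counts in a library. Counting by strand is not given in the sources used here, and the other overlaps with genes that held over 100 counts in any library spanned 32 to 476 bases (LARP7 with ZGRF1, MEPCE with ZCWPW1, CCNT2 with CCNT2-AS1).

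Before auxin the inhibitor and the kinase of P-TEFb had the highest mRNA levels per length. At 0 h HEXIM1 was at 35.6 ± 6.59 CPM per kilobase of deposited transcript length in SPT6-AID cells and 42.3 ± 3.42 in PAF1-AID cells (SD, n = 2 each). CDK9 followed at 27.4 ± 2.82 and 26.1 ± 0.742 CPM per kilobase in SPT6-AID and PAF1-AID cells, with no overlap with HEXIM1 in either line. CDK12 was at 17.4 ± 0.99 and MEPCE at 16.9 ± 0.633 CPM per kilobase in SPT6-AID cells, where their libraries overlapped. In PAF1-AID cells CDK12 was at 13.3 ± 0.215 and MEPCE at 15.9 ± 1.03 CPM per kilobase. CCNT1 and LARP7 stood between 10.4 and 12.1, CCNK at 8.39 in SPT6-AID and 8.21 in PAF1-AID cells, CCNT2 at 4.66 and 4.43, and CDK13 was lowest at 3.50 and 3.24. Apart from CDK12 and MEPCE in SPT6-AID cells, no neighbours in this order overlapped. CCNT2 was thus the lower of the P-TEFb cyclins, and CDK13 the lower of the cyclin K kinases, in both lines. The order depends on the deposited transcript length, which for CDK13 was 24618 bases, near the 25093 of all its annotated exons together. In CPM, CDK13 (86.1 in SPT6-AID, 79.7 in PAF1-AID cells) lay above CCNT2 (42.3 and 40.2) and LARP7 (41.4 and 48.4). CDK12 had the highest CPM of the 9 genes at 0 h (213 and 162).

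Between the lines no difference in these genes passed at 0 h. With edgeR's quasi-likelihood test and Benjamini-Hochberg adjustment over all genes, 0 of 9 passed the threshold of 0.05 between SPT6-AID and PAF1-AID cells at 0 h, against 0.0337% of all genes in either direction. At an unadjusted p under 0.05 there was 1, CDK12, and DESeq2 and limma-voom called 0. CDK12 had 204 and 221 CPM in SPT6-AID libraries, against 164 and 160 CPM in PAF1-AID libraries, without overlap. Its log2 difference was 0.39 ± 0.16 (SE, adjusted p = 0.718, edgeR). With a block for the replicate number in edgeR it passed (adjusted p = 0.032), where 11.7% of all genes were called.

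**Figure D1:**
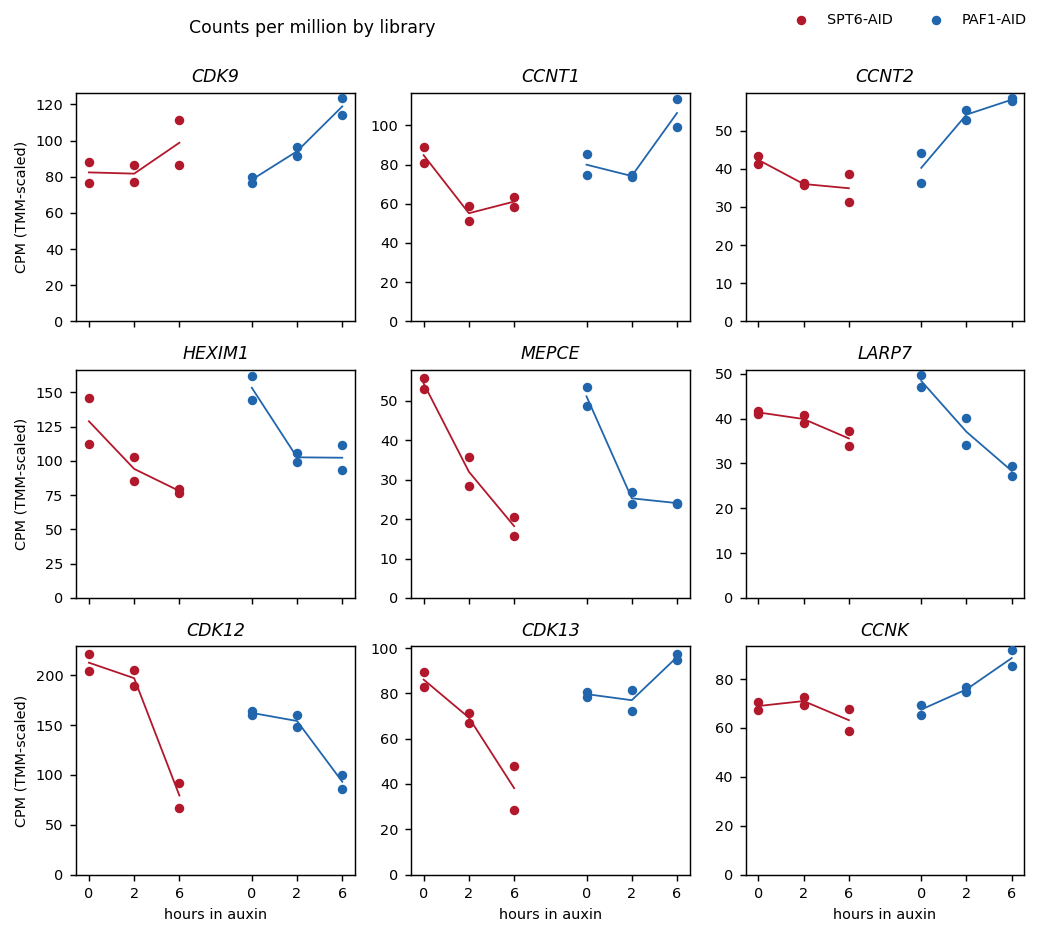
CPM (TMM-scaled) of each gene on the vertical axes, against hours in auxin for SPT6-AID (red) and PAF1-AID (blue); points are libraries and lines join the means of 2. MEPCE lies at 15.8 to 24.2 CPM in all 4 libraries at 6 h, below every 0 h library of either line, while CDK13 falls in SPT6-AID cells and not in PAF1-AID cells.

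After 6 h of auxin SPT6-AID cells had less mRNA of the 7SK capping enzyme, of the inhibitor HEXIM1, of cyclin T1 and of both cyclin K kinases. Of the 9 genes, 5 were lower (MEPCE, CDK12, CDK13, HEXIM1 and CCNT1) and 0 higher, where 16.4% of all genes tested were lower and 8.76% higher. In bulk RNA, fewer cells of a kind and less RNA per cell cannot be told apart. The median log2 fold change of the 9 was -0.47, against 0.04 over all genes. PAF1-AID cells at 6 h had 4 of the 9 lower (MEPCE, LARP7, CDK12 and HEXIM1) and 2 higher (CDK9 and CCNT2), where 6.7% of all genes were lower and 4.2% higher. Their median was 0.27, against 0.02 over all genes. All later adjusted p-values are from the same edgeR test, called the main test, unless another tool or setting is named. A fit with a block for the replicate number called more members and more of all genes, and its counts are given at the end.

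At 2 h none of the 9 passed the main test in either line. In SPT6-AID cells 0 of 9 were called higher or lower, against 0.0866% and 0.462% of all genes, with 3 at an unadjusted p under 0.05. DESeq2 called 2 there, CCNT1 and MEPCE, and limma-voom called 0. In PAF1-AID cells 0 of 9 were called, against 0.0673% higher and 0.0818% lower of all genes, with 4 at an unadjusted p under 0.05. MEPCE was the member called there by DESeq2 and by limma-voom, and it also passed with edgeR without the low-count filter or without SPT6-AID 6h replicate 1 (adjusted p = 0.0396) or 2 (0.0403). In SPT6-AID cells MEPCE passed without that filter (adjusted p = 0.023). With a block for the replicate number, CCNT1, HEXIM1 and MEPCE passed as lower in SPT6-AID cells, where 7.76% of all genes were called. In PAF1-AID cells HEXIM1, MEPCE and LARP7 then passed as lower and CCNT2 as higher, where 6.98% of all genes were called. The 2 h and 6 h comparisons of a line share their 0 h libraries, so each is given with its own values.

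**Figure D2:**
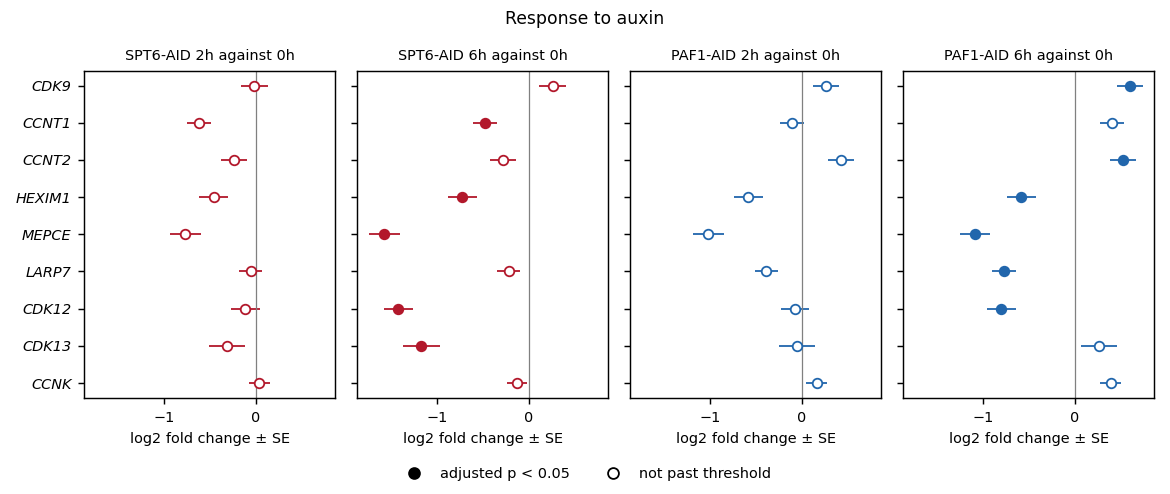
Log2 fold change against 0 h of the same line on the horizontal axes, with standard errors as bars, for 2 h and 6 h in SPT6-AID (red) and PAF1-AID (blue) cells; filled points passed an adjusted p of 0.05 in edgeR's quasi-likelihood test. No point is filled at 2 h, and at 6 h MEPCE, HEXIM1 and CDK12 are filled on the lower side in both lines.

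The catalytic subunit of P-TEFb was the one member whose mean was higher at 6 h than at 0 h in both lines, and it passed the test in PAF1-AID cells. CDK9 had 88.4 and 76.4 CPM at 0 h, 86.6 and 76.8 CPM at 2 h, and 111 and 86.4 CPM at 6 h in SPT6-AID libraries. Its 6 h and 0 h libraries overlapped, and the log2 fold change of 0.26 ± 0.14 did not pass (adjusted p = 0.219). In PAF1-AID libraries CDK9 had 79.9 and 76.8 CPM at 0 h, 91.6 and 96.7 CPM at 2 h, and 114 and 124 CPM at 6 h. Each time stood above the one before it, and CDK9 rose at 6 h by 0.60 ± 0.14 on the log2 scale (adjusted p = 0.0255), a fold of 1.52. That call was lost by leaving out any one of the 4 PAF1-AID libraries at 0 and 6 h (adjusted p 0.0921 to 0.123), and with total counts as library sizes (adjusted p = 0.105).

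Cyclin T1, the main cyclin partner of CDK9, moved apart in the lines. CCNT1 had 80.6 and 89.0 CPM at 0 h, 51.3 and 59.1 CPM at 2 h, and 63.6 and 58.6 CPM at 6 h in SPT6-AID libraries. Both auxin times lay below 0 h without overlap, and its 2 h and 6 h libraries overlapped. The log2 fold change was -0.62 ± 0.13 at 2 h (adjusted p = 0.0779), and CCNT1 fell by 0.47 at 6 h (log2 fold change -0.47 ± 0.13, adjusted p = 0.0228). The 6 h call was lost without SPT6-AID 0h replicate 2 (adjusted p = 0.129), 6h replicate 1 (0.0523) or 6h replicate 2 (0.119), with the line fitted alone (0.0726) and with genes of a mean of at least 1 CPM (0.0656). In PAF1-AID libraries CCNT1 had 85.3 and 74.6 CPM at 0 h, 73.8 and 74.6 CPM at 2 h, and 113 and 99.3 CPM at 6 h. The 6 h libraries lay above all others of the line, but the log2 fold change of 0.41 ± 0.13 did not pass (adjusted p = 0.0701), though it did with DESeq2 (0.43, adjusted p = 0.0322).

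Cyclin T2, the alternative cyclin of P-TEFb, had lower values in one line and higher values in the other. CCNT2 had 43.4 and 41.3 CPM at 0 h, 36.3 and 35.7 CPM at 2 h, and 38.5 and 31.3 CPM at 6 h in SPT6-AID libraries, where the 6 h log2 fold change of -0.28 ± 0.14 did not pass (adjusted p = 0.188). PAF1-AID libraries had 44.3 and 36.2 CPM at 0 h, 52.9 and 55.5 CPM at 2 h, and 57.8 and 58.4 CPM at 6 h. The PAF1-AID libraries in auxin lay above those at 0 h, and CCNT2 rose at 6 h by 0.53 ± 0.14 (adjusted p = 0.0389). That call held in 8 of 21 alternative settings only, and leaving out any one of 10 libraries ended it (adjusted p 0.0556 to 0.198), the exceptions being SPT6-AID 6h replicates 1 and 2.

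Among the 7SK proteins, MEPCE, the methyltransferase that caps 7SK RNA, had the largest 6 h fold change of the 9 genes in each line. MEPCE had 55.9 and 53.0 CPM at 0 h, 28.3 and 35.7 CPM at 2 h, and 20.6 and 15.8 CPM at 6 h in SPT6-AID libraries. The 3 times did not overlap. It fell at 6 h by 1.58 (log2 fold change -1.58 ± 0.17, adjusted p = 0.000225), which is 2.98-fold lower, and 526 of 20791 genes ranked at or below it. The 2 h log2 fold change was -0.76 ± 0.16 (adjusted p = 0.0857).

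In PAF1-AID libraries MEPCE had 48.8 and 53.5 CPM at 0 h, 26.8 and 23.7 CPM at 2 h, and 23.9 and 24.2 CPM at 6 h. The 2 h and 6 h libraries overlapped and lay below 0 h. MEPCE fell at 6 h by 1.09 (log2 fold change -1.09 ± 0.17, adjusted p = 0.00383), 2.13-fold lower. The 2 h log2 fold change of -1.02 ± 0.17 missed the threshold (adjusted p = 0.0542, edgeR). The 6 h calls of MEPCE held in each of the 21 alternative settings in both lines.

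HEXIM1, which inhibits P-TEFb inside the 7SK particle, was lower in both lines at 6 h. It had 146 and 112 CPM at 0 h, 103 and 85.3 CPM at 2 h, and 79.7 and 76.5 CPM at 6 h in SPT6-AID libraries, where the times did not overlap. HEXIM1 fell at 6 h by 0.72 (log2 fold change -0.72 ± 0.16, adjusted p = 0.00775), a call that was lost without SPT6-AID 0h replicate 1 (adjusted p = 0.0645). In PAF1-AID libraries it had 162 and 145 CPM at 0 h, 106 and 99.3 CPM at 2 h, and 111 and 93.3 CPM at 6 h. The 2 h and 6 h libraries of PAF1-AID cells overlapped and lay below 0 h, and HEXIM1 fell at 6 h by 0.58 (log2 fold change -0.58 ± 0.16, adjusted p = 0.0414). Leaving out any one of the PAF1-AID libraries ended this call (adjusted p 0.0663 to 0.205). CDK9 had the highest level per length of the 9 genes at 2 and 6 h in both lines. At 6 h it stood at 32.9 ± 5.87 CPM per kilobase in SPT6-AID cells, where HEXIM1 was at 21.5 ± 0.62, and at 39.6 ± 2.31 in PAF1-AID cells, where HEXIM1 was at 28.2 ± 3.52. The libraries of these genes overlapped in SPT6-AID cells at 2 h.

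LARP7, which protects the 3′ end of 7SK RNA, passed the test in PAF1-AID cells and not in SPT6-AID cells. In SPT6-AID libraries it had 41.1 and 41.7 CPM at 0 h, 40.8 and 39.0 CPM at 2 h, and 37.3 and 33.9 CPM at 6 h, with a 6 h log2 fold change of -0.22 ± 0.13 (adjusted p = 0.256). PAF1-AID libraries had 49.7 and 47.0 CPM at 0 h, 34.0 and 40.1 CPM at 2 h, and 27.1 and 29.5 CPM at 6 h. The times did not overlap in PAF1-AID cells, and LARP7 fell at 6 h by 0.77 (log2 fold change -0.77 ± 0.13, adjusted p = 0.00547). Without PAF1-AID 6h replicate 3 the call was lost (adjusted p = 0.0725). The difference between the lines' 6 h responses was 0.55 ± 0.18 and did not pass (adjusted p = 0.137), whereas DESeq2 called it (0.59, adjusted p = 0.0486).

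The 7SK RNA itself cannot be read from these libraries. It is not polyadenylated and poly(A) RNA was selected, and the RN7SK row held 0 counts in all 12 libraries. The other rows named 7SK held at most 98 counts summed over all 12.

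CDK12 was lower at 6 h and within the spread at 2 h in both lines. It had 204 and 221 CPM at 0 h, 189 and 205 CPM at 2 h, and 92.2 and 66.5 CPM at 6 h in SPT6-AID libraries. The 2 h and 0 h libraries overlapped, with a log2 fold change of -0.11 ± 0.15 (adjusted p = 1), and both lay far above 6 h. CDK12 fell at 6 h by 1.42 against 0 h (log2 fold change -1.42 ± 0.16, adjusted p = 0.000261), 2.68-fold lower, and by 1.31 against 2 h (-1.31 ± 0.16, adjusted p = 0.00111). In PAF1-AID libraries CDK12 had 164 and 160 CPM at 0 h, 161 and 148 CPM at 2 h, and 100 and 86.2 CPM at 6 h. It was again within the spread at 2 h, and it fell at 6 h by 0.80 against 0 h (log2 fold change -0.80 ± 0.16, adjusted p = 0.0108). That call was lost without PAF1-AID 0h replicate 3 (adjusted p = 0.0561), 6h replicate 3 (0.0561) or 6h replicate 4 (0.0676). Against 2 h the PAF1-AID log2 fold change of -0.73 ± 0.16 did not pass (adjusted p = 0.0594).

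CDK13, the paralogue of CDK12 that also pairs with cyclin K, fell in SPT6-AID cells. It had 89.5 and 82.7 CPM at 0 h, 71.5 and 67.1 CPM at 2 h, and 47.9 and 28.4 CPM at 6 h in SPT6-AID libraries. The times did not overlap, and the 6 h libraries differed from each other more than those of the other times. CDK13 fell at 6 h by 1.17 (log2 fold change -1.17 ± 0.20, adjusted p = 0.00206), 2.25-fold lower, in each of the 21 alternative settings. PAF1-AID libraries had 78.6 and 80.8 CPM at 0 h, 72.3 and 81.7 CPM at 2 h, and 97.3 and 94.8 CPM at 6 h. There the 6 h libraries lay above those of 0 h, and the log2 fold change of 0.27 ± 0.20 did not pass (adjusted p = 0.442).

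CCNK, the cyclin that both kinases need, did not pass the main test in either line. In SPT6-AID libraries it had 70.5 and 67.4 CPM at 0 h, 72.6 and 69.4 CPM at 2 h, and 67.6 and 58.7 CPM at 6 h. Its 6 h and 0 h libraries overlapped, with a log2 fold change of -0.13 ± 0.11 (adjusted p = 0.464). In PAF1-AID libraries CCNK had 65.5 and 69.5 CPM at 0 h, 76.7 and 74.9 CPM at 2 h, and 91.7 and 85.5 CPM at 6 h. The times did not overlap, but the 6 h log2 fold change of 0.39 ± 0.11 did not pass (adjusted p = 0.0533). It did pass with DESeq2 (0.41, adjusted p = 0.0138), with DESeq2's size factors (0.0457), with genes of a mean of at least 1 CPM (0.0424), and without SPT6-AID 6h replicate 1 (0.0359) or 2 (0.0361). Reads of CCDC85C could enter these values if strand was not used.

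Between 2 and 6 h, 3 of the 9 genes fell in SPT6-AID cells and 0 rose, where 10.4% of all genes were lower. Besides CDK12 these were MEPCE (log2 fold change -0.81 ± 0.17, adjusted p = 0.00953) and CDK13 (-0.86 ± 0.20, adjusted p = 0.0162). The MEPCE call was lost without SPT6-AID 2h replicate 2 (adjusted p = 0.0897) or 6h replicate 2 (0.0735). The CDK13 call was lost without SPT6-AID 2h replicate 1 (0.0724), 2h replicate 2 (0.0626) or 6h replicate 2, and the last of these moved its log2 fold change to -0.54 (adjusted p = 0.0503). With the SPT6-AID line fitted alone both calls were lost (adjusted p = 0.0551 for MEPCE and 0.0877 for CDK13), and CDK12 was the member still called. In PAF1-AID cells 0 of 9 passed between 2 and 6 h (edgeR), against 0.875% of all genes, with 4 at an unadjusted p under 0.05. DESeq2 called 2 of them, CCNT1 and CDK12, and limma-voom 0. MEPCE averaged 24.1 CPM at 6 h and 25.3 CPM at 2 h in PAF1-AID cells, a log2 fold change of -0.07 ± 0.17 (adjusted p = 0.93).

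The lines differed in their 6 h response for CDK13 and CCNT1. The log2 fold change in SPT6-AID cells minus that in PAF1-AID cells was -1.44 ± 0.28 for CDK13 (adjusted p = 0.0251) and -0.88 ± 0.18 for CCNT1 (adjusted p = 0.0307), 2 of the 9 genes, where 3.12% of all genes were lower. Both calls were lost with total counts as library sizes (adjusted p = 0.0881 for CDK13 and 0.0978 for CCNT1), with fly totals (0.172 and 0.199), and in several fits that left out 1 library. For CDK13 these were the fits without any 0 h library of either line or either PAF1-AID 6 h library (adjusted p 0.0632 to 0.0955). For CCNT1 they were those without any 0 h library of either line, SPT6-AID 6h replicate 2 or any PAF1-AID library at 2 or 6 h (adjusted p 0.0558 to 0.113). CCNT2 differed by -0.81 ± 0.20 and missed the threshold (adjusted p = 0.0549), but passed with DESeq2 (-0.77, adjusted p = 0.0129) and without SPT6-AID 6h replicate 1 (-0.93, adjusted p = 0.0328).

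For the genes that fell in both lines no difference passed the main test. With a block for the replicate number the CDK12 difference at 6 h passed (-0.62, adjusted p = 0.00994), where 21.7% of all genes were called. The difference at 6 h was -0.62 ± 0.22 for CDK12 (adjusted p = 0.172), -0.49 ± 0.23 for MEPCE (adjusted p = 0.346) and -0.14 ± 0.22 for HEXIM1 (adjusted p = 0.877). The CDK12 difference moved with the SPT6-AID 6 h libraries: it passed without replicate 1 (-0.84, adjusted p = 0.032) and was -0.40 and not called without replicate 2. For CDK9 the difference was -0.34 ± 0.20 (adjusted p = 0.491). At 2 h 0 of 9 differences passed, against 0.0337% of all genes in either direction, with 2 at an unadjusted p under 0.05 and 0 by DESeq2 and by limma-voom.

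**Figure D3:**
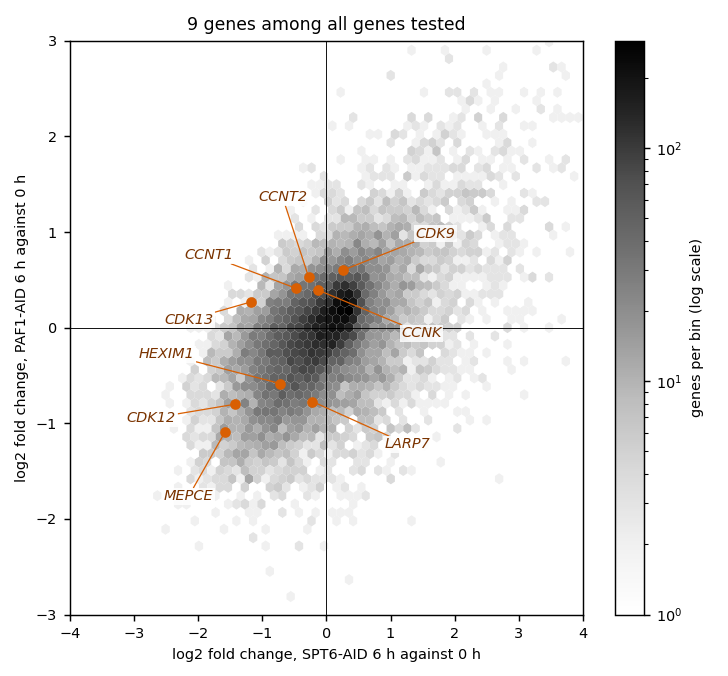
Log2 fold change at 6 h against 0 h in PAF1-AID cells (vertical) and in SPT6-AID cells (horizontal) for all 20791 genes tested, with the 9 genes in orange; grey shading gives genes per bin and 377 genes lie outside the axes. MEPCE, CDK12 and HEXIM1 lie low on both axes, and CDK13 lies at -1.17 in SPT6-AID and 0.27 in PAF1-AID cells.

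Ratios of counts within a library do not depend on how libraries are scaled, and they show how far partners moved apart. The CDK12 to CCNK ratio was 2.90 and 3.28 at 0 h, 2.61 and 2.96 at 2 h, and 1.36 and 1.13 at 6 h in SPT6-AID libraries. In PAF1-AID libraries it was 2.51 and 2.31 at 0 h, 2.09 and 1.97 at 2 h, and 1.09 and 1.01 at 6 h. Both lines thus had far less kinase mRNA per cyclin mRNA at 6 h than at 0 h, with no overlap.

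The CDK12 to CDK13 ratio behaved otherwise. It was 2.28 and 2.68 at 0 h, 2.65 and 3.06 at 2 h, and 1.93 and 2.34 at 6 h in SPT6-AID libraries, where 6 h overlapped 0 h. In PAF1-AID libraries it was 2.09 and 1.99 at 0 h, 2.22 and 1.81 at 2 h, and 1.03 and 0.91 at 6 h, well below the other times. Relative to CDK13, CDK12 was thus lower at 6 h than at 0 h in PAF1-AID libraries, and the ratios were not tested.

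Relative to CDK9, the 7SK proteins MEPCE and HEXIM1 had lower counts at 6 h than at 0 h in both lines. The MEPCE to CDK9 ratio was 0.632 and 0.693 at 0 h, 0.327 and 0.465 at 2 h, and 0.185 and 0.183 at 6 h in SPT6-AID libraries. In PAF1-AID libraries it was 0.610 and 0.696 at 0 h, 0.293 and 0.245 at 2 h, and 0.210 and 0.195 at 6 h. Each time lay below the one before it in both lines, without overlap. For HEXIM1 to CDK9 the ratio was 1.65 and 1.47 at 0 h, 1.19 and 1.11 at 2 h, and 0.716 and 0.886 at 6 h in SPT6-AID libraries. It was 2.03 and 1.88 at 0 h, 1.16 and 1.03 at 2 h, and 0.977 and 0.754 at 6 h in PAF1-AID libraries. The ratio of the P-TEFb cyclins, CCNT1 to CCNT2, was lower at 2 h (1.41 and 1.65 in SPT6-AID, 1.39 and 1.34 in PAF1-AID libraries) than at 0 h (1.86 and 2.16 in SPT6-AID, 1.93 and 2.06 in PAF1-AID libraries). At 6 h it was 1.65 and 1.87 in SPT6-AID and 1.96 and 1.70 in PAF1-AID libraries, overlapping 0 h in both.

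**Figure D4:**
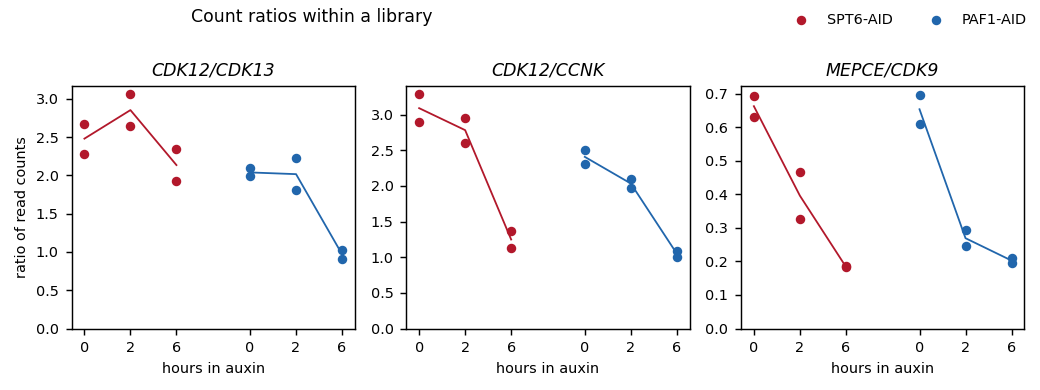
Ratio of read counts of 2 genes within each library (vertical axes) against hours in auxin, SPT6-AID in red and PAF1-AID in blue; points are libraries and lines join the means of 2. The CDK12 to CDK13 ratio at 6 h is 1.93 and 2.34 in SPT6-AID libraries and 1.03 and 0.91 in PAF1-AID libraries, while MEPCE to CDK9 reaches 0.183 to 0.210 in both.

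Scaling to fly reads changed the sign of 2 of the 6 h values and the calls of several. TMM holds most genes level, whereas scaling to fly reads moved the median of all genes by -0.39 at 6 h in SPT6-AID cells and -0.37 in PAF1-AID cells (log2). On that scale 28.1% of all genes passed as lower in SPT6-AID cells, and 8 of the 9 genes did, all but CDK9, whose log2 fold change of -0.15 ± 0.24 was opposite in sign to its TMM value (adjusted p = 0.671). Relative to the median of all genes CDK9 stood at 0.24, CCNK at -0.15 and MEPCE at -1.60. In PAF1-AID cells MEPCE (-1.47), CDK12 (-1.19), LARP7 (-1.16) and HEXIM1 (-0.98) passed as lower on the fly scale, where 13.8% of all genes did. CDK9 (0.21, adjusted p = 0.567) and CCNT2 (0.13, adjusted p = 0.742) no longer passed, and their values relative to the median of all genes were 0.58 and 0.50. CDK13 was at -0.12 on the fly scale in PAF1-AID cells (adjusted p = 0.803), again of the opposite sign to its TMM value.

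**Figure D5:**
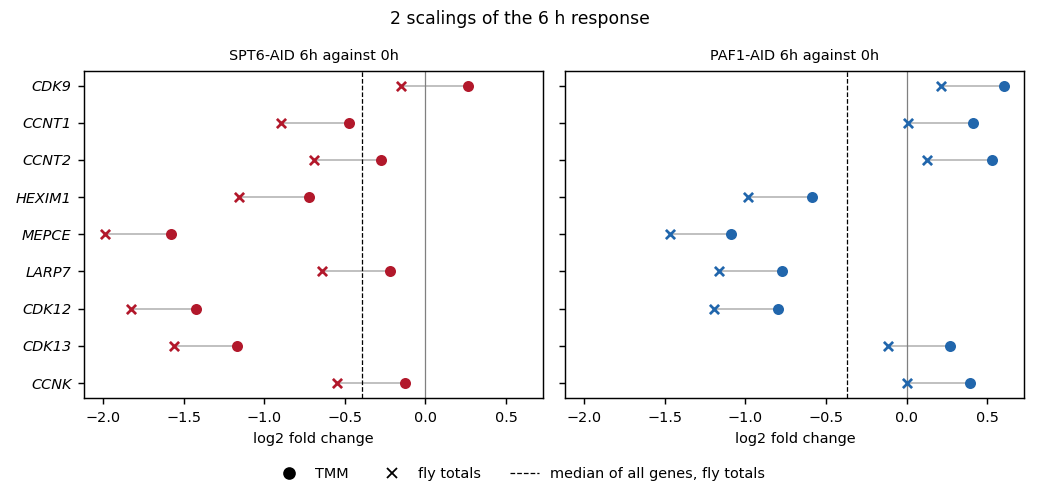
Log2 fold change at 6 h against 0 h of each gene with TMM scaling (circles) and with fly totals as library sizes (crosses), SPT6-AID on the left and PAF1-AID on the right; the dashed line is the median of all genes under fly totals, at -0.39 and -0.37. Every gene shifts by a similar amount, so MEPCE, CDK12 and HEXIM1 are lower on both scales in both lines while CDK9 in SPT6-AID cells and CDK13 in PAF1-AID cells change sign.

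Genes that work with these kinases were followed in 6 lists of 59 genes, all of them tested. At 6 h 24 of the 59 were lower and 1 higher in SPT6-AID cells, where 16.4% of all genes were lower and 8.76% higher, and their median log2 fold change was -0.44 against 0.04 over all genes. In PAF1-AID cells 10 were lower and 3 higher, where 6.7% of all genes were lower and 4.2% higher, and their median was -0.02 against 0.02. At 2 h 0 of 59 passed in SPT6-AID cells (edgeR, where DESeq2 called 2), against 0.0866% higher and 0.462% lower of all genes. In PAF1-AID cells 1 passed as lower, against 0.0818% of all genes. This was PPP1R10, which encodes a nuclear regulator of protein phosphatase PP1. Its log2 fold change at 2 h was -2.17 ± 0.21 in PAF1-AID cells (adjusted p = 0.0076).

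Among the 10 genes for P-TEFb release and other 7SK partners, 4 were lower in SPT6-AID and 1 in PAF1-AID cells at 6 h. Of all genes 16.4% and 6.7% were lower. Those called in this list included the phosphatase PPM1B (-0.86 ± 0.16 in SPT6-AID, 0.13 ± 0.16 and not called in PAF1-AID), and the splicing factor SRSF1 (-0.55 ± 0.11 in SPT6-AID, -0.47 ± 0.11 in PAF1-AID, both lower). HEXIM2, the paralogue of HEXIM1, was at -1.43 ± 0.46 in SPT6-AID cells (adjusted p = 0.0443) and -1.45 ± 0.46 in PAF1-AID cells (adjusted p = 0.0701). Of the 10 recruiters and super elongation complex genes, 5 were lower and 1 higher in SPT6-AID cells, and 1 lower and 1 higher in PAF1-AID cells. MLLT3 and MLLT1, alternative subunits that read acylated histones, fell in SPT6-AID cells by 1.24 and 0.90 (log2 fold changes -1.24 ± 0.11 and -0.90 ± 0.11). JMJD6 was at -1.33 ± 0.16 in SPT6-AID cells and -0.40 ± 0.16, not called, in PAF1-AID cells. EAF1, a partner of the ELL elongation factors, rose in both lines, by 0.43 ± 0.12 in SPT6-AID and 0.79 ± 0.12 in PAF1-AID cells.

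Of the 7 P-TEFb targets, 1 was lower in SPT6-AID cells, the NELF subunit NELFA (-1.40 ± 0.22), and 0 passed in PAF1-AID cells with edgeR. The shares of all genes were 16.4% lower in SPT6-AID cells, and 6.7% lower and 4.2% higher in PAF1-AID cells. In SPT6-AID cells this list and the next stood near that share. Of the 10 other kinases and cyclins acting on the C-terminal domain, 2 were lower in SPT6-AID cells, the TFIIH kinase CDK7 (-1.22 ± 0.32) and the Mediator kinase CDK8 (adjusted p = 0.00122). In PAF1-AID cells 1 was lower, CDK8 (-0.57 ± 0.15), and 2 were higher, the cyclin L gene CCNL1 (0.63 ± 0.15) and CDK11B (0.43 ± 0.12), whose reads may be shared with its near-identical neighbour CDK11A. Of the 7 phosphatases of the domain, 4 were lower in SPT6-AID and 2 in PAF1-AID cells. PPP1R10 was at -1.75 ± 0.20 in SPT6-AID and -1.84 ± 0.20 in PAF1-AID cells, and CTDP1, a phosphatase of the C-terminal domain, was at -1.49 ± 0.30 in SPT6-AID and 0.26 ± 0.29, not called, in PAF1-AID cells.

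Of the 15 homologous recombination genes, 8 were lower in SPT6-AID cells (16.4% of all genes) and 5 in PAF1-AID cells (6.7% of all genes), and 0 higher in either with edgeR. PALB2, which links the BRCA proteins, was at -1.77 ± 0.20 in SPT6-AID and -1.25 ± 0.19 in PAF1-AID cells. BRCA2, a mediator of this repair, was at -1.33 ± 0.18 in SPT6-AID and -1.29 ± 0.18 in PAF1-AID cells. CDK12, known to be needed for such genes, fell in the same libraries, and its part in their values was not tested. The difference between lines at 6 h passed for 6 of the 59 genes, all lower in SPT6-AID, where 3.12% of all genes were lower. These were PPM1B, MLLT1, MLLT3, CCNL1, CTDP1 and the BRCA1 partner BARD1.

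Genes with the most similar course were sought among 9397 candidates, by the root mean square difference over the 8 auxin libraries in log2 CPM minus the 0 h mean of the line. Closest to CDK13 were RSF1 (0.0771) and MAML1 (0.0908), to CDK12 ASXL1 (0.113) and KIF16B (0.136), and to MEPCE ZNF7 (0.120) and TIGD2 (0.151). HEXIM1 was nearest PYGO2 (0.121) and USP21 (0.132), and LARP7 was nearest NIT1 (0.103) and LPCAT4 (0.108). CDK9 was nearest SH3BGRL2 (0.0894) and EDC4 (0.0910), CCNT1 was nearest CGRRF1 (0.0799) and ZNF417 (0.116), and CCNT2 was nearest NUDT4B (0.0866), a near-identical copy of NUDT4, and CCNL1 (0.123). Among the 9 genes themselves the most alike were CCNT2 and CCNK (0.225), and the least alike were CDK9 and MEPCE (1.46).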

How the data were processed

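Poly(A) RNA was sequenced from 12 DLD-1 libraries in 6 groups of 2. Column-extracted RNA was selected for poly(A) and prepared as directional NEBNext libraries, per the labels' protocols. The submitters' processing notes name cutadapt 1.14, STAR 2.7.5 and featureCounts 2.0.0, and the genome builds GRCh38 for human and BDGP6 for fly. The deposited values are whole-number read counts per gene, not normalized by the authors, and the file also gives each gene's length and transcript length. Totals were 31957953 to 115904780 counts per library, and replicates of a group differed by far more than sampling noise (chi-square per degree of freedom 37.7 to 69.9). Whether PCR copies were removed is not given in the sources used here.

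The 9 genes were matched by gene name, and all 12 library columns were matched by name to their samples. Human genes passing filterByExpr (20791) were scaled by TMM and fitted with edgeR 4.0.16 as 6 group means over 12 libraries, with 6 residual degrees of freedom. Contrasts were tested with its quasi-likelihood test and adjusted by Benjamini-Hochberg over all genes, and 0.05 was the threshold. A standard error is the size of the log2 fold change over the root of its F statistic. CPM are TMM-scaled except those of the cell type markers, and CPM per kilobase divide by the deposited transcript length. Gene positions came from GENCODE 29 on GRCh38 and promoters from RefSeq (GRCh38.p14), 14 windows for the 9 genes. The test was checked on simulated data.

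The 9 genes, the 6 related lists (59 genes) and the alternatives were chosen with earlier results of these data known. From the lists, up to 3 genes with the smallest p in a 6 h comparison were named, and PPP1R10 at 2 h and the 6 genes whose difference between lines passed were named after their values were seen. The counts cover every listed gene, also those not named. The genes most alike were the 2 nearest to each member called in a comparison with 0 h, from candidates whose mean log2 CPM was 3 or more. Alternatives tried were scaling by DESeq2's size factors, by total counts or by fly totals, leaving the low-count filter off or asking for a mean of 1 CPM, DESeq2 1.42.0, limma-voom (limma 3.58.1), each line by itself, a block for the replicate number, and leaving out each library.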

Additional observations from a re-analysis of the deposited data

Results flagged for a closer look

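CDK13 and CCNT1 are given here because the difference between the lines' 6 h responses was itself tested and passed the threshold. CDK13 had 47.9 and 28.4 CPM at 6 h against 89.5 and 82.7 CPM at 0 h in SPT6-AID libraries, and 97.3 and 94.8 CPM at 6 h against 78.6 and 80.8 CPM at 0 h in PAF1-AID libraries. The log2 difference of the responses, SPT6-AID minus PAF1-AID, was -1.44 ± 0.28 (edgeR quasi-likelihood test, adjusted p = 0.0251). For CCNT1 the difference was -0.88 ± 0.18 (adjusted p = 0.0307), with 63.6 and 58.6 CPM at 6 h against 80.6 and 89.0 CPM at 0 h in SPT6-AID libraries and 113 and 99.3 CPM at 6 h against 85.3 and 74.6 CPM at 0 h in PAF1-AID libraries. Both genes lay below 0 h in SPT6-AID and above 0 h in PAF1-AID libraries without overlap. Each call was lost in part of the alternative settings. With 2 libraries a group, outlying libraries were not tested for.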

How the results depend on the processing

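Over 21 alternative settings, 1571 of 1683 fold changes of the 9 genes kept their side of the threshold, 62 lost their call and 50 gained one. None that was called changed sign, and 39 that were not called in either fit did, 14 of them with fly totals. Only values called in the main test could lose a call, and most of the 1683 were not called there. The 62 lost calls are therefore a larger share of the calls than of all 1683 values. At 6 h against 0 h the number of members called in SPT6-AID cells was 5, and 8 with fly totals, 4 with a mean of at least 1 CPM and 4 with the line alone. In PAF1-AID cells it was 6, and 4 with total counts, 4 with fly totals, 5 without the filter, 7 with DESeq2's size factors, 7 with a mean of at least 1 CPM and 8 with DESeq2. For the difference between lines at 6 h it was 2, and 0 with total counts, 0 with fly totals, 1 with a mean of at least 1 CPM and 4 with DESeq2. At 2 h in SPT6-AID cells it was 0, and 1 without the filter and 2 with DESeq2. In PAF1-AID cells at 2 h it was 0, and 1 without the filter, 1 with DESeq2 and 1 with limma-voom. Between 2 and 6 h it was 3 in SPT6-AID cells, and 1 with the line alone, and 0 in PAF1-AID cells, and 1 without the filter and 2 with DESeq2. Of the related genes, 25 were called in SPT6-AID cells at 6 h, and 42 with fly totals. At 2 h 0 were called in SPT6-AID cells, and 2 without the filter and 2 with DESeq2, and 1 in PAF1-AID cells, and 2 without the filter, 3 with DESeq2 and 0 with the line alone. The share of all genes called moved as well. At 6 h in SPT6-AID cells it was 25.2%, and 32.7% with fly totals and 19.9% with the line alone. In PAF1-AID cells it was 10.9%, and 15.2% with fly totals and 14.4% with DESeq2. For the difference at 6 h it was 3.74%, and 1.07% with total counts, 0.077% with fly totals and 6.54% with DESeq2. The cause was not tested.

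Leaving out 1 library gave 4 to 5 members called in SPT6-AID cells at 6 h, 1 to 7 in PAF1-AID cells at 6 h, 1 to 3 in SPT6-AID cells between 2 and 6 h, 0 to 4 for the difference at 6 h, and 0 to 1 in PAF1-AID cells at 2 h and between 2 and 6 h. For related genes the ranges were 15 to 25 in SPT6-AID and 4 to 17 in PAF1-AID cells at 6 h, and 0 to 1 in PAF1-AID cells at 2 h. The number of all genes called also moved widely between these fits, so the ranges cannot be read as particular to the members or the related genes. A lone library was assumed to vary like the others.

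With the replicate number as a block, members called were 3 and 7 in SPT6-AID and 4 and 8 in PAF1-AID cells at 2 and 6 h, 5 and 4 between 2 and 6 h, 1 and 7 for the differences at 2 and 6 h, and 1 between the lines at 0 h. Related genes called were 6 and 40 in SPT6-AID and 7 and 38 in PAF1-AID cells at 2 and 6 h. With that block 7.76% and 51.4% of all genes were called in SPT6-AID and 6.98% and 38.3% in PAF1-AID cells at 2 and 6 h, so the members' counts stand against far larger shares. Each line has 2 numbers, which correlated across times (deviations from group means, r 0.75 to 0.92 over 13280 genes), and the labels tie them to no shared batch, so this is a hint from the data and not the design.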
